A study of Drosophila melanogaster with 8 samples.

Results

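Cuticle protein genes encode the structural proteins that fill and bind the chitin meshwork of the insect exoskeleton. The 122 genes described here are the protein-coding genes of the Drosophila melanogaster genome whose symbol starts with Cpr followed by a digit, Lcp, Ccp, Acp65, Pcp, Edg or Twdl, out of 13911 protein-coding genes on the 6 chromosome arms. P-p38, the phosphorylated and active state of the MAP kinase p38 that responds to stress, was mapped by ChIP-seq in S2 cells, a wild-type line with haemocyte-like properties that was derived from embryos. The H2O2 group (2 libraries) was exposed to 10 mM H2O2 for 30 min at 25 °C, and the control group (2 libraries) received an equal volume of medium. Both groups share the same line and culture medium with serum and antibiotics, and nothing in the labels says that the libraries of a group came from separate cultures. The 4 input samples of the 8 come without peak lists and were not used here.

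Most of these genes belong to the CPR family, named for the chitin-binding Rebers and Riddiford consensus of their proteins, and the family includes the larval (Lcp), pupal (Pcp) and adult (Acp) cuticle proteins. The Tweedle (Twdl) proteins form a separate family that was named for a mutant with a short, stout body. Both families are known from the epidermis, where ecdysone-driven moulting programmes switch them on at set stages, and many of their genes lie side by side in arrays of copies. RNA was not measured in these samples, so whether any of the genes was active in the cells is not known from these data.

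The genes were chosen by symbol, and the group as a whole was selected on earlier counts of H2O2 and control summits at cuticle genes in these same libraries. The contrast between H2O2 and control is therefore described and not tested. With 2 libraries against 2, an exact two-sided permutation test could not give a p below 0.333. On the arms the lists held 6434 and 4019 peaks in H2O2 replicates 1 and 2, and 4314 and 2988 peaks in control replicates 1 and 2. The number of reads behind each list is unknown, so its precision can be read only from the other library of the group.

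P-p38 summits lay at cuticle protein genes in H2O2-treated cells far more often than in control cells, while other genes leaned the other way. A summit is the position of highest signal in a peak, and a gene was counted when a summit lay inside it or within 500 bp of it. This held for 26 and 21 of the 122 genes in H2O2 replicates 1 and 2, against 2 and 4 genes in control replicates 1 and 2. As shares these were 21.3% and 17.2% in H2O2 and 1.64% and 3.28% in control, so neither group reached into the range of the other. Over all 13911 protein-coding genes the shares were 10.7% and 11.9% in H2O2 and 14.2% and 13.4% in control. Having more genes with a summit in H2O2 than in control was not particular to cuticle genes. Of 230 odorant-binding and chemoreceptor genes, 37 and 21 had a summit in H2O2 replicates 1 and 2, against 15 and 6 in control. Unlike the cuticle genes, they did not stand above all genes when both H2O2 libraries had to agree. Both H2O2 libraries called 5.22% of them and 6.13% of all genes, and both control libraries 1.74% and 7.43%. The mean share was 19.3% ± 2.90 in H2O2 and 2.46% ± 1.16 in control for the cuticle genes, and 11.2% ± 0.944 in H2O2 and 13.9% ± 0.605 in control for all other genes (SD, n = 2 each).

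Cuticle genes are short, and short genes catch fewer summits. Their median length was 954.5 bp, against 2177 bp for other protein-coding genes. The other genes were therefore also weighted to the lengths of the cuticle genes, in 10 length classes set by the cuticle genes' own lengths. Weighted in this way, other genes had a summit in 5.53% and 5.89% of cases in H2O2 replicates 1 and 2 and in 8.45% and 9.03% in control replicates 1 and 2. In both H2O2 libraries the cuticle share stood above that of other genes of like length, and in both control libraries it stood below. The same lean was present per length of sequence: in the 315.37 kb of cuticle genes with their flanks there were 10.5 and 6.66 summits per 100 kb in H2O2, and 0.634 and 1.27 in control. Other genes with their flanks had 4.46 and 3.07 summits per 100 kb in H2O2, and 4.04 and 2.89 in control.

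**Figure D1:**
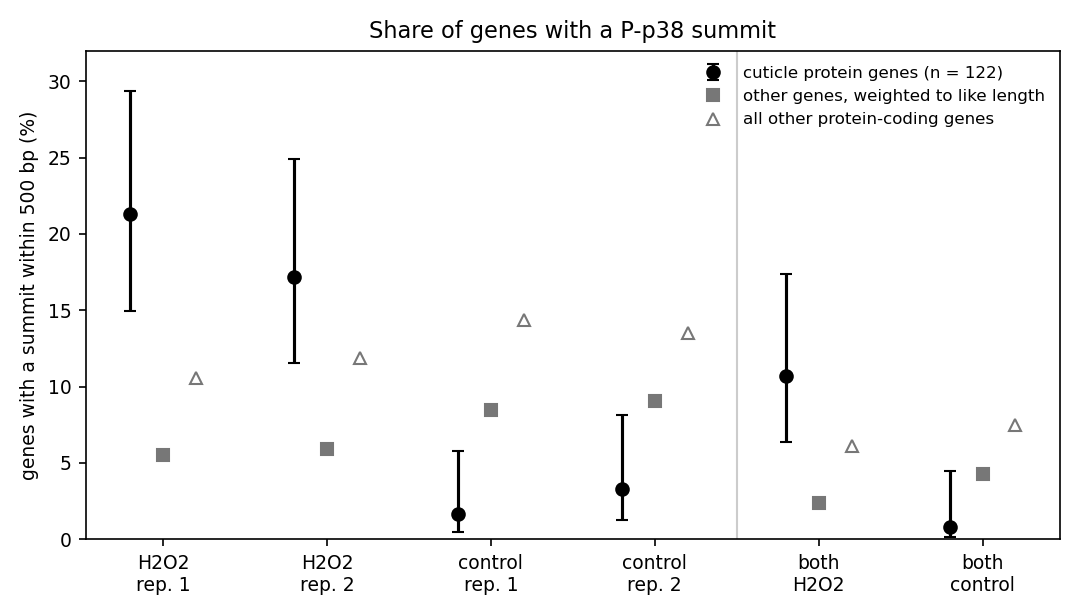
Share of genes (%, y axis) with a P-p38 summit within 500 bp in each library and in both libraries of a group. Circles are the 122 cuticle protein genes with Wilson 95% intervals (counting error only, genes taken as independent). Squares are other genes weighted to like length and open triangles all other protein-coding genes. The circles stand at 21.3% and 17.2% in H2O2 and at 1.64% and 3.28% in control.

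The same lean was present when both libraries of a group had to agree. In both H2O2 libraries 13 cuticle genes (10.7%, Wilson 95% interval 6.33 to 17.4, counting error only) had a summit within 500 bp, where 6.13% of all protein-coding genes did and 2.36% of other genes weighted to like length. In both control libraries 1 cuticle gene did (0.82%, interval 0.145 to 4.50), where 7.43% of all protein-coding genes did and 4.30% of other genes of like length. These intervals treat genes as independent, although 12 of the 13 genes lie in 6 arrays of neighbours. Lcp65Ag3 and Cpr65Au were called by the same peak in each library. The group was also selected on these libraries, so the intervals are no test against the other shares. A call shared by the H2O2 libraries and absent from both control libraries was made for 10 cuticle genes. It was made for 2.52% of all genes and 1.38% of other genes of like length. The converse call was made for 1 cuticle gene, beside 4.01% of all genes and 3.15% of other genes of like length. In all 4 libraries 0 cuticle genes were called, beside 1.94% of all genes and 0.551% of other genes of like length. At least 1 H2O2 library had a summit at 34 cuticle genes (16.5% of all genes), and at least 1 control library at 5 (20.2% of all genes). No summit in any library was found at 86 of the 122, and the matching share of all genes is not given here.

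The call in both H2O2 libraries takes in 13 genes: Lcp65Ag3, Cpr65Au, Lcp65Ag1, Acp65Aa and Cpr65Az of the 65A cluster, Cpr62Ba and Cpr62Bc, Cpr47Ea and Cpr47Ef, Cpr49Aa, Cpr64Aa, TwdlV and Cpr100A. At 9 of them the peaks of both libraries overlapped each other, and at 6 the closest summits lay within 100 bp of each other. The median distance between those summits was 109 bp, beside 167 bp at the 840 other genes called in both H2O2 libraries. Overlapping peaks were found at 69.2% of the 13 genes and at 64.6% of those other genes. Lcp65Ag3 and Cpr65Au enter these numbers as separate genes with the same pair of summits, 7 bp apart. The 840 genes were not matched for length, and a longer gene leaves room for larger distances (up to 43424 bp among them). The difference was not tested. A peak covered at least 1 bp of the gene body in both H2O2 libraries at 10 cuticle genes (5.82% of all genes) and in both control libraries at 1 (6.92% of all genes).

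**Figure D2:**
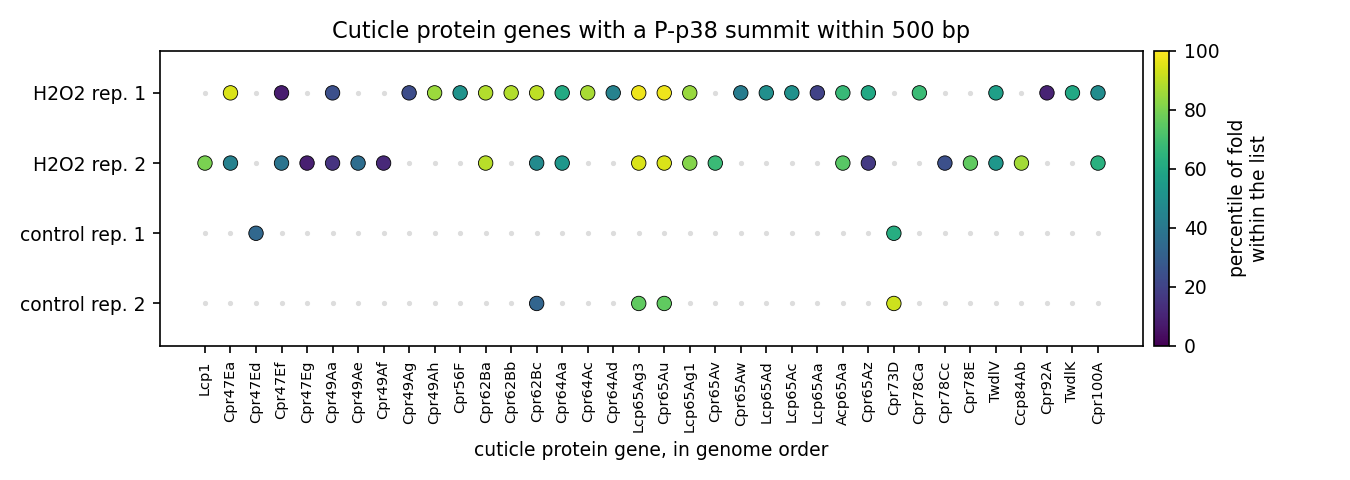
Cuticle protein genes (x axis, in genome order) with a summit within 500 bp in at least 1 of the 4 libraries (y axis). Filled circles mark a summit and are coloured by the percentile of the authors' fold enrichment within that library's list (the highest where a gene has several), and small dots mark none; 34 genes have a circle in an H2O2 row and 5 in a control row.

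H2O2 peaks at cuticle genes were of ordinary width and of middling strength within their own lists. The fold enrichment is the authors' value for each peak, relative to a background that is unknown, so folds printed here rank peaks within a list, by the percentile beside them, and are no levels to compare between libraries. The 33 cuticle peaks of H2O2 replicate 1 had a median width of 287 bp and a median percentile of 51.5, and the 21 of H2O2 replicate 2 had 279 bp and 53.1. The median widths of all peaks in these lists were 296 and 270 bp. The 2 cuticle peaks of control replicate 1 had a median width of 267.5 bp and a median percentile of 47.9, and the 4 of control replicate 2 had 429.5 bp and 81.4, beside median widths of 324 and 354.5 bp in these lists. The summit lay inside a cuticle gene for 25 of the 33 and 19 of the 21 H2O2 peaks. A q of 1e-05 or less was reached by 2 and 1 cuticle peaks in H2O2 replicates 1 and 2, beside 9.70% and 7.61% of all peaks in those lists, and by 0 and 3 in control replicates 1 and 2, beside 21.6% and 25.7%. At that threshold only Lcp65Ag3 and its neighbour Cpr65Au, which share 1 peak, were called in both H2O2 libraries, beside 0.518% of all genes, and 0 cuticle genes were called in both control libraries, beside 2.21% of all genes. Counted per library at that threshold, 3 and 2 cuticle genes had a summit in H2O2 replicates 1 and 2, against 0 and 3 in control replicates 1 and 2, so the groups then overlapped. With every list shortened to its 2988 peaks of highest fold, 9 cuticle genes were called in both H2O2 libraries (3.42% of all genes) and 1 in both control libraries (6.32% of all genes).

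The largest array lies in cytological band 65A on the left arm of chromosome 3 (dm6, 3L 6130386 to 6161589), where 18 cuticle genes of 413 to 868 bp stand within 31.2 kb with 1 other protein-coding gene, CG13297, among them. A summit was found at 9 and 6 of the 18 genes in H2O2 replicates 1 and 2, against 0 and 2 in control replicates 1 and 2. Of 1826 other genes in the same range of lengths, 73 and 62 had a summit in H2O2 replicates 1 and 2, against 83 and 91 in control replicates 1 and 2. Both H2O2 libraries called 5 of the 18 (27.8%), and 1.20% of those other genes. Both control libraries called 0 of the 18, and 1.92% of those other genes. Counted over the whole span, 10 and 7 summits lay in the array in H2O2 and 0 and 1 in control. On average, 200 kb of 3L held 12.0 and 6.96 summits in H2O2 and 6.71 and 4.90 in control. The 100 kb on each side of the array together held 28 and 24 summits in H2O2 and 7 and 10 in control. At these control rates few summits would fall in 31.2 kb, so the control counts in the span show no shortage. The H2O2 counts stand above both H2O2 rates.

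Lcp65Ag3, a larval cuticle gene at the left end of the array (3L 6130386 to 6130989), had the strongest cuticle peaks of both H2O2 lists. The authors' fold was 2.16 in H2O2 replicate 1 (percentile 97.6) and 1.99 in H2O2 replicate 2 (percentile 94.5). Control replicate 2 also had a peak there, at a fold of 1.85 (percentile 75.7), and control replicate 1 had its nearest summit 50310 bp away. The summits of the 3 libraries fell at 6130922 and 6130929 in H2O2 and at 6130915 in control replicate 2. The same summits lie 320 and 313 bp (H2O2) and 327 bp (control replicate 2) from Cpr65Au (3L 6131242 to 6132109), which has no peak over its body, so both genes were called by 1 peak per library.

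Lcp65Ag1 (3L 6134697 to 6135274), another larval gene of the array, was called in the H2O2 libraries alone. Its folds were 1.83 (percentile 84.5) and 1.79 (percentile 81.5) in H2O2 replicates 1 and 2, with summits 34 bp apart inside the gene, and the peaks covered 45.2% and 52.4% of it. Acp65Aa (3L 6152050 to 6152745), an adult cuticle gene, had folds of 1.72 (percentile 67.2) and 1.74 (percentile 73.9) in H2O2 replicates 1 and 2, with summits 39 bp apart, over 41.5% and 68.5% of the gene. At Cpr65Az (3L 6160814 to 6161589), the last gene of the array, the folds were 1.68 (percentile 60.1) and 1.51 (percentile 16.8) in H2O2 replicates 1 and 2, with summits 35 bp apart. In the control lists the nearest summit to these 3 genes was between 3782 and 51329 bp away.

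The other calls in the array came from a single H2O2 library. H2O2 replicate 1 had summits at Cpr65Aw, Lcp65Ad, Lcp65Ac and Lcp65Aa, at percentiles of 19.6 to 50.3, and H2O2 replicate 2 had one inside Cpr65Av, at percentile 67.7. The 8 genes with no summit in any library were Lcp65Ag2, Lcp65Af, Lcp65Ae, Lcp65Ab2, Cpr65Ax1, Lcp65Ab1, Cpr65Ax2 and Cpr65Ay. Several of these genes are numbered copies (Lcp65Ag1 to Lcp65Ag3, Lcp65Ab1 and Lcp65Ab2, Cpr65Ax1 and Cpr65Ax2), and how reads that match more than 1 copy were treated is not stated in the labels or files. Calls at single copies are uncertain for that reason.

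**Figure D3:**
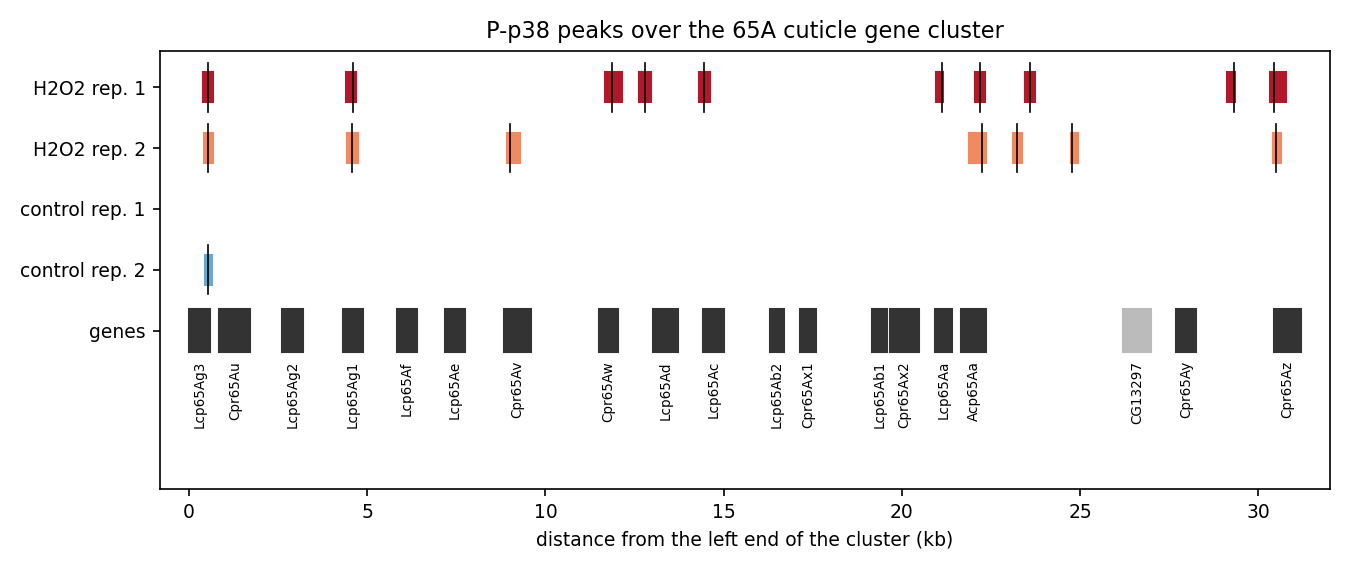
Map of the 65A array, with distance from its left end in kb on the x axis and the 4 libraries and the genes on the y axis (boxes are peaks, vertical ticks their summits, dark boxes cuticle genes and the grey box CG13297). H2O2 replicates 1 and 2 have 10 and 7 summits over the 31.2 kb, and the control libraries have 0 and 1, the latter at Lcp65Ag3.

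Cuticle genes on the same arm with gaps of at most 10 kb formed 16 arrays of 3 or more genes, which hold 88 of the 122 genes. H2O2 summits were spread unevenly over them: 6 arrays held a gene called in both H2O2 libraries, and together they held 12 of the 13 such genes. In 5 arrays with 17 genes (65E, 67F, 72E and 76B on 3L, and TwdlX to Twdlalpha on X) no library had a summit. Of the 34 genes outside arrays, 3 and 2 had a summit in H2O2 replicates 1 and 2, against 1 in each control library. Those H2O2 counts are below the shares of all protein-coding genes, 10.7% and 11.9%. Other genes weighted to the lengths of all cuticle genes, not of the 34, had 5.53% and 5.89%. Beside these, the count of H2O2 replicate 1 is higher and that of H2O2 replicate 2 about the same. The counts thus show no shortage at the genes outside arrays. In the control libraries all protein-coding genes had 14.2% and 13.4%. Cpr100A on 3R was the only gene outside arrays called in both H2O2 libraries. It had folds of 1.63 and 1.69 at percentiles 48.4 and 63.3 and peaks that did not overlap each other.

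**Figure D4:**
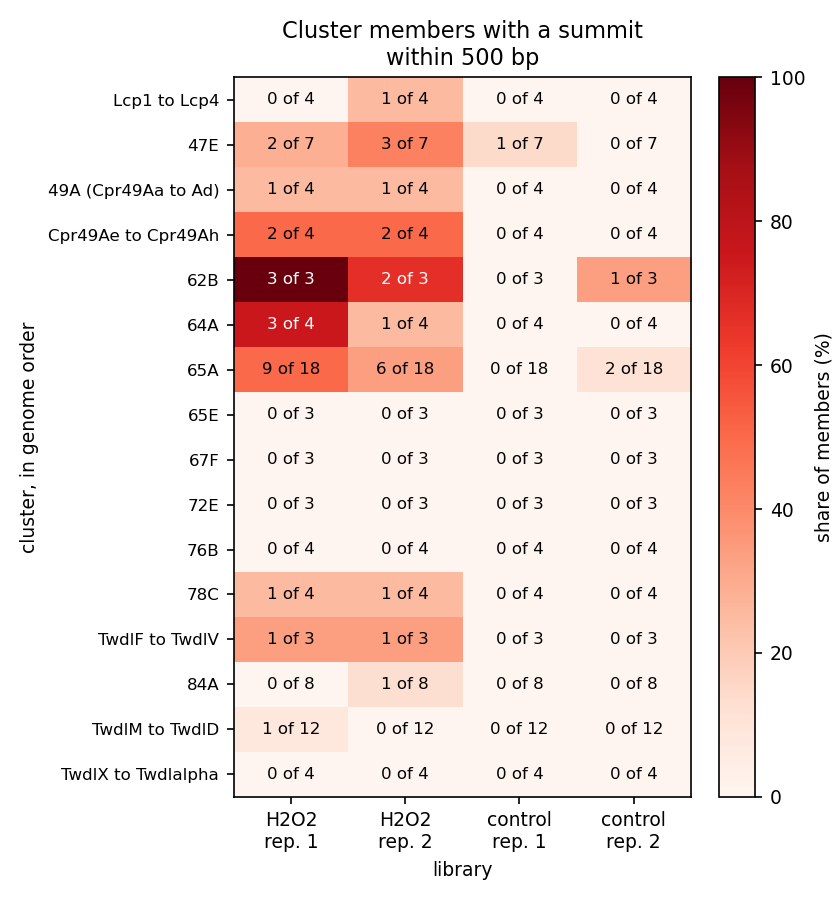
Number of genes with a summit within 500 bp in each of the 16 arrays of cuticle genes (rows, in genome order) and each library (columns), with the colour giving the share of the array's genes in %. The 65A array has 9 and 6 of 18 genes in H2O2 and 0 and 2 in control, and 62B has 3 and 2 of 3 in H2O2 and 0 and 1 in control.

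The 62B array (3L 1824129 to 1842084) had a summit at all 3 of its genes in H2O2 replicate 1 and at 2 in H2O2 replicate 2, against 0 and 1 in control replicates 1 and 2. Cpr62Ba, at 7655 bp the longest of the 13 genes, held 5 and 2 summits in H2O2 replicates 1 and 2, and no peak of one library overlapped the nearest peak of the other. Cpr62Bc had folds of 1.90 and 1.63 in H2O2 replicates 1 and 2 (percentiles 90.0 and 47.6) and 1.55 in control replicate 2 (percentile 32.4), all at overlapping positions. Control replicate 1 had its nearest summit 1415 bp from this gene. Cpr62Bb had 2 summits in H2O2 replicate 1 alone.

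On the right arm of chromosome 2 the 47E array (2R 11251751 to 11278445, 7 genes) had summits at 2 and 3 genes in H2O2 replicates 1 and 2, against 1 and 0 in control replicates 1 and 2. Cpr47Ef had peaks inside the gene in both H2O2 libraries, at percentiles of 7.9 and 38.6. Cpr47Ea had a peak beyond its end in H2O2 replicate 1 (fold 2.00, percentile 94.3) and one inside it in H2O2 replicate 2 (fold 1.61, percentile 43.5), with summits 770 bp apart. This gene overlaps the odorant receptor gene Or47a. The single control call in the array was at Cpr47Ed in control replicate 1, at percentile 33.5. In band 49A the genes fall into a left and a right group of 4 each, separated by more than 10 kb. The left group had Cpr49Aa in both H2O2 libraries (percentiles 24.6 and 15.0, summits 78 bp apart), and in the right group Cpr49Ag and Cpr49Ah were called in H2O2 replicate 1 and Cpr49Ae and Cpr49Af in H2O2 replicate 2. Neither group had a summit in a control library.

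The 4 genes of the 64A array (3L 4207838 to 4216414) lie inside the longer gene CG43367, so their summits cannot be assigned to one gene alone. Summits were found at 3 and 1 of them in H2O2 replicates 1 and 2, against 0 in both control libraries. Only Cpr64Aa was called in both H2O2 libraries, with summits 1472 bp apart. The second of these lies 478 bp outside the gene, which makes Cpr64Aa the call closest to the 500 bp limit. Just outside that limit were Cpr56F, whose nearest summits lay at 0 and 575 bp in H2O2 replicates 1 and 2, Cpr78Ca at 189 and 708 bp, and Cpr78E at 712 and 0 bp. For the control group the nearest genes outside the limit were Cpr62Bc, with its nearest summits at 1415 and 0 bp in control replicates 1 and 2, Twdlbeta at 955 and 1867 bp and Cpr31A at 2439 and 1146 bp.

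Of 25 Tweedle genes, 2 and 1 had a summit in H2O2 replicates 1 and 2, against 0 in both control libraries, and the H2O2 counts are near the 5.53% and 5.89% of other genes weighted to the lengths of all cuticle genes. TwdlV (3R 4254708 to 4255833) was called in both H2O2 libraries at percentiles of 56.2 and 53.1, with summits 281 bp apart. The array of 12 genes from TwdlM to TwdlD on 3R (26619118 to 26641054) had a single summit, at TwdlK in H2O2 replicate 1. In the 84A array, which holds Edg84A and the 7 Ccp84A genes (3R 6684445 to 6704903), the single summit was at Ccp84Ab in H2O2 replicate 2. Of 96 CPR genes, 24 and 20 had a summit in H2O2 replicates 1 and 2, against 2 and 4 in control replicates 1 and 2, and the difference between the families was not tested. The glycine-rich cuticle gene Edg91, the pupal gene Pcp, which lies inside the purine synthesis gene Gart, and the other Edg genes had none in any library. None of the 7 cuticle genes on 2L and none of the 8 on X had a summit in any library. Over all genes on these arms 5.05% (2L) and 2.42% (X) were called in both H2O2 libraries, and 6.33% (2L) and 5.43% (X) in both control libraries. Those shares use a stricter measure than a summit in any library. With 7 and 8 genes, no lack of calls beside other genes of these arms can be read from the absence.

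Cpr73D on 3L (16939100 to 16957689, 18590 bp) was the 1 cuticle gene called in both control libraries. It had 1 summit in control replicate 1 (fold 1.71, percentile 62.3) and 2 in control replicate 2 (folds of 2.18 and 2.62, percentiles 87.1 and 92.4), and the nearest H2O2 summits were 35678 and 5080 bp away. All 3 control summits also lie inside Ogdh, which encodes a subunit of the mitochondrial 2-oxoglutarate dehydrogenase and overlaps Cpr73D, so they cannot be assigned to the cuticle gene.

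The surroundings of the arrays held very different numbers of summits. In the 100 kb on each side of the 65A array there were 28 and 24 summits in H2O2 replicates 1 and 2, where 200 kb of the arm held 12.0 and 6.96 on average, and 7 and 10 summits in control replicates 1 and 2, where the arm average was 6.71 and 4.90. On the same arm, the flanks of 62B held 35 and 28 summits in H2O2 and 16 and 11 in control, and those of 64A held 24 and 15 in H2O2 and 8 and 17 in control. Around the left 49A group, whose flanks take in the right group, there were 36 and 19 summits in H2O2, where 200 kb of 2R held 15.8 and 8.92, and 7 and 1 in control, where it held 8.73 and 5.53. Around 47E, on the same arm, the numbers were 17 and 12 in H2O2 and 21 and 2 in control. The flanks of the TwdlF to TwdlV array held 4 and 11 summits in H2O2, where 200 kb of 3R held 8.94 and 6.21, and 9 and 4 in control, where it held 7.40 and 5.05. All 6 of these arrays hold a gene called in both H2O2 libraries, and their flanks were above the arm average in both H2O2 libraries except for TwdlF to TwdlV in H2O2 replicate 1. Arrays with a summit at a gene in a single H2O2 library could have few around them: the flanks of TwdlM to TwdlD held 0 and 0 summits in H2O2 and 2 and 1 in control, those of 84A 0 and 2 in H2O2 and 0 and 1 in control, those of Lcp1 to Lcp4 5 and 3 in H2O2 and 0 and 0 in control. Flanks of 78C held 2 and 6 summits in H2O2 and 6 and 4 in control. Those of the right 49A group held 18 and 13 in H2O2 and 9 and 0 in control. Around the 5 arrays with no summit, both H2O2 libraries were below the arm average. Their flanks held 0 and 1 (65E), 6 and 1 (67F), 1 and 2 (72E) and 4 and 6 (76B) in H2O2. For TwdlX to Twdlalpha this was 0 and 0, where 200 kb of X held 1.89 and 1.53. In control these 5 held, in order, 1 and 0, 0 and 0, 4 and 8, 5 and 3, and 3 and 2. The part of the surroundings in the calls was not tested.

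Distance to the nearest summit, measured from the same summits as the counts above, showed the same order over the whole gene group. Its median for cuticle genes was 6394.5 and 7429.5 bp in H2O2 replicates 1 and 2, and 38696 and 42898 bp in control replicates 1 and 2. For other genes it was 27206 and 19850 bp in H2O2 and 16018 and 16133 bp in control. Within the 65A array the median was 483 and 1320.5 bp in H2O2, and 41856 and 13192 bp in control. Neighbours in an array can share their nearest summit, so the distances are not independent of the counts or of each other.

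**Figure D5:**
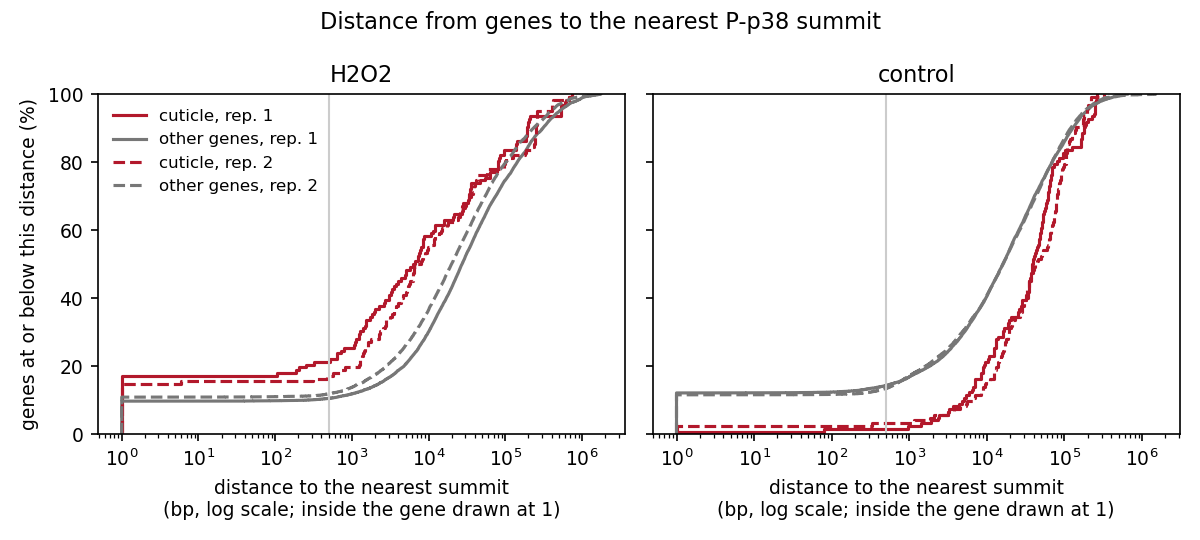
Cumulative share of genes (%, y axis) by distance in bp to the nearest P-p38 summit (x axis, log scale, summits inside the gene drawn at 1) in the H2O2 libraries (left) and the control libraries (right), with the grey vertical line at 500 bp. The cuticle curves (red) lie above those of other genes (grey) at 500 bp in both H2O2 libraries and below them in both control libraries.

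Further genes of cuticle formation were counted in the same way, beside all protein-coding genes, of which 10.7% and 11.9% had a summit in H2O2 replicates 1 and 2 and 14.2% and 13.4% in control replicates 1 and 2. Of 19 genes for chitin synthesis, chitin turnover, chitin-binding matrix proteins and tanning, 6 and 5 had a summit within 500 bp in H2O2 replicates 1 and 2, against 1 in each control library, and their median length was 5367 bp. Both H2O2 libraries called 4 of the 19, beside 6.13% of all genes: the chitinase gene Cht7 (2 and 1 summits), the chitin-binding obstructor gene obst-A (2 and 2 summits), the beta-alanine synthesis gene b (2 and 1 summits) and the tanning laccase gene stw (3 and 1 summits). Of the 19 genes, stw alone was called in both control libraries (6 and 1 summits), beside 7.43% of all genes. No share of other genes was weighted to the lengths of the 19, among which stw (42352 bp) and Cht7 (15974 bp) are long. At least 1 library had a summit at 7 of the 19. Genes with none in any library included the chitin synthase gene kkv, the chitin deacetylase genes serp and verm, and the tyrosine hydroxylase gene ple. Of 15 regulators of moulting and cuticle genes, 4 and 3 had a summit in H2O2 replicates 1 and 2, against 8 and 4 in control replicates 1 and 2. Among them EcR, which encodes the ecdysone receptor, had 1 summit in every library, and usp, which encodes its partner, had 1 summit in each control library and 0 in both H2O2 libraries. The ecdysone-induced gene Eip75B had 6 and 3 summits in control replicates 1 and 2 and the zinc finger gene crol had 10 and 5, against 0 in both H2O2 libraries for each. These lists were chosen with earlier results of the same libraries known, and the regulators are long genes (median 39895 bp), so the counts of the lists cannot be set against each other or against those of the cuticle genes.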

How the data were processed

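Chromatin from sonicated nuclei was immunoprecipitated with an antibody to P-p38, per the labels' protocols. Picard and MACS2 were used on build dm6, per the submitters' processing notes. Their versions, options, background library and read filters were not given in the sources used here. Each deposited list holds the peaks of 1 library, and replicates were not pooled. The score the authors deposited equals 10 times the -log10 p cut to a whole number in 17926 of 17927 peaks. Fold values in the deposited lists are linear ratios to the background of the peak caller. Each deposited p-value or q-value is written as its -log10.

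The 17755 peaks on chromosomes X, 2, 3 and 4 were set against RefSeq genes of genome Release 6, the assembly of dm6. That table has no strand, exons or introns, and none is given for the genes here. A gene was called in a library when a summit lay in its body or within 500 bp of it, and in a group when both libraries called it; an overlap needed at least 1 bp. Percentiles rank the authors' fold within each list. For genes of like length, 12496 other genes were placed in 10 length classes, and the shares of the classes were averaged with equal weight. Arrays join neighbours at most 10 kb apart and were kept from 3 genes on. The 3 pseudogenes with matching symbols were left out. Wilson 95% intervals cover counting error only and treat genes as independent, although neighbours can share a peak. The members, lists and rules were chosen with earlier results of these data known. Named genes are those called in both libraries of a group or in 3 libraries, those of the 65A array with any summit, those of other arrays with summits in 2 libraries, and the 3 nearest to the limit in each group; further genes were named after their values were seen. Planned counts of promoter motifs were not run, because no sequence was used here. The counting functions were tested on simulated peaks. Python 3.11.15, pandas 2.3.3, NumPy 2.4.6, SciPy 1.17.1 and Matplotlib 3.10.9 were used.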

Additional observations from a re-analysis of the deposited data

How the results depend on the processing

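For summit calls made in both libraries of a group, more cuticle genes were called in H2O2 than in control under every alternative run, but the size of the lean was set by the threshold and by the need for both libraries. Genes called in both H2O2 libraries numbered 10 within 250 bp, 17 within 1000 bp, 8 at either gene end, 9 with lists of equal length and 2 at q of 1e-05 or less, against 1, 1, 0, 1 and 0 in both control libraries. Of all protein-coding genes, 5.81%, 7.04%, 1.45%, 3.42% and 0.518% were called in both H2O2 libraries under these settings. In both control libraries it was 6.68%, 9.22%, 3.49%, 6.32% and 2.21% of all genes. Calls in both H2O2 and neither control library fell to 6 at gene ends, 6 with lists of equal length and 0 at q of 1e-05 or less. With 1 library standing for its group the counts were 21 to 26 in H2O2 and 2 to 4 in control, and 10 to 23 for H2O2 without control. Per library, q of 1e-05 or less left 3 and 2 genes in H2O2 replicates 1 and 2 (2 and 2 in the 65A array) and 0 in control replicate 1. In control replicate 2, 3 genes were left, so at that limit the libraries of the groups overlapped. Lists of equal length left 15 genes, 5 of them in 65A, in H2O2 replicate 1, gene ends alone left 1 gene in control replicate 1, and 250 bp left 1 gene of 65A in control replicate 2. Genes overlapped in both libraries numbered 0 in H2O2 and 0 in control with at least 50% of the gene covered, 6 and 1 with lists of equal length, 1 and 0 at q of 1e-05 or less, and 19 to 22 (H2O2) and 2 to 3 (control) with 1 library alone. When the peaks of both libraries had to overlap each other, a setting chosen after seeing the data, 9 genes were called in H2O2 and 1 in control. Gaps of up to 30 kb gave 15 arrays, and 5 length classes gave 2.48% (H2O2) and 4.37% (control) for other genes of like length. The cause of these shifts was not tested beyond what each setting removes. No paired analysis was possible because no result comes from a test, and the labels do not say that replicate numbers pair the libraries. The peak names in the lists carry one tag for replicate 1 of both groups and another for replicate 2, which may mark shared experiments. Taken by number, 26 cuticle genes in H2O2 stood against 2 in control for replicate 1, and 21 against 4 for replicate 2. Depth per library is unknown, so a gene without a peak is one where none was called, not one shown to lack P-p38.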

Other observations

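Odorant-binding and chemoreceptor genes (symbols starting Obp, Or, Gr or Ir followed by a digit), another family of short genes known from tissues other than haemocytes, were counted in the same way. Of 230 such genes, 37 and 21 had a summit within 500 bp in H2O2 replicates 1 and 2, against 15 and 6 in control replicates 1 and 2. Of all protein-coding genes, 10.7% and 11.9% had one in H2O2 and 14.2% and 13.4% in control. The median length of the 230 genes was 1498.5 bp, and no share of other genes was weighted to their lengths. Both H2O2 libraries called 12 (5.22%) and both control libraries 4 (1.74%), beside 6.13% and 7.43% of all protein-coding genes. Olfactory receptor (Or) genes made up 6 of the 12 H2O2 calls, among them Or42b, Or43a and Or85a, and odorant-binding genes 1, Obp99d. Counted per library, 15 and 9 of 59 Or genes had a summit in H2O2, against 5 and 1 in control. For the 60 Ir genes this was 13 and 8 against 6 and 4. It was 6 and 3 against 4 and 1 for the 60 Gr genes, and 3 and 1 against 0 and 0 for the 51 Obp genes. Ir41a, an ionotropic receptor gene, was called in all 4 libraries. The difference between this family and the cuticle genes was not tested. The pseudogenes Lcp1Psi, Lcp65APsi and TwdlU, which stand beside cuticle genes, had no summit within 500 bp in any library.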
